A study of Mus musculus with 28 samples.

Results

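Zfp281 knockout (KO) cells were compared with wild-type (WT) cells while both were still held in 2i, where inhibitors of Gsk3 and Mek keep mouse embryonic stem cells in the naive state. The comparison used 4 of the 28 libraries of the series, chosen by their labelled genotype and stage: the KO lines KO1 and KO2, and the WT lines WT and Zfp281_WT, with 1 library from each line (n = 2 libraries per group). All were RGd2 cells, a female line that carries a Rex1:GFPd2-IRES-Blasticidin reporter, grown on gelatin in N2B27 with CHIR99021 and PD0325901. Ribosomal RNA was removed from total RNA before libraries were made, per the labels for the Zfp281 KO cells and their WT; lines WT and Zfp281_WT were placed in that set by name and by their share of histone counts. The labels do not say how Zfp281 was disrupted, whether KO1 and KO2 arose independently, or how line Zfp281_WT relates to line WT. The p-values in 2i rest on the spread within groups, pooled over 2i and 32 h after its withdrawal. Libraries of a line at both stages were treated as independent. Against 1 WT line alone, the WT libraries in 2i were separate groups, so the spread between them did not enter those p-values. Libraries of the same lines taken 16 h and 32 h after 2i withdrawal (n = 2 per genotype at each stage) were used to follow the genes named in 2i.

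Zfp281 is a zinc finger transcription factor that binds G-rich DNA, and Zfp148 is its close paralogue. It is best known for its part in the passage of pluripotent cells from the naive to the primed state, for its link to Nodal signalling in the early embryo, and for its association with the Tet1 and Tet2 enzymes. In 2i the Mek inhibitor blocks Erk signalling and the Gsk3 inhibitor stabilises beta-catenin, which keeps the cells naive. The comparison reads the cells before they were released to differentiate.

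The counts could not check the knockout label. Zfp281 itself (Entrez 226442, GRCm38 chromosome 1, 136624901 to 136630391) had 238 CPM (counts scaled to library size) in line WT, 302 CPM in line Zfp281_WT, 278 CPM in KO1 and 280 CPM in KO2. The KO values lay between the WT values, with a log2 fold change of 0.05 ± 0.11 (± is the standard error throughout; adjusted p = 0.78). Total counts were 18086421 in line Zfp281_WT and 32571767 to 35911590 in the other libraries in 2i. Line Zfp281_WT also stood apart in silent genes: 89% of 1108 olfactory receptor genes had a count there, against 13.9% to 16.3% in the other libraries in 2i. The mean was 0.265 CPM against 0.0104 to 0.0166 CPM. At 32 h the library of line Zfp281_WT had a count in 87% of these genes (mean 0.193 CPM), and at 16 h in 8.94%. The library at 32 h enters the pooled spread and the comparisons at 32 h. Each result below is therefore given against both WT lines together and, where it bears on a call, against each WT line alone, and the genes of largest change are named from those with at least 5 CPM in a group; members of the gene lists are named at any level. The WT lines differed more than 2-fold in 123 of the 10672 genes of that level and the KO lines in 3. The stem cell markers were high in all 4 libraries: Pou5f1 had 1030 and 904 CPM in the WT lines and 958 and 994 CPM in KO1 and KO2, and Sox2 had 451 and 459 CPM against 554 and 565 CPM.

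In 2i the libraries labelled Zfp281 KO showed large falls in the Lefty and Lin28 genes and smaller shifts in many others. Of 18971 genes tested, 2618 were called at an adjusted p under 0.05 (13.8%), 1613 of them higher in the KO cells (8.5%) and 1005 lower (5.3%). Among genes of at least 5 CPM in a group, 2292 of 10672 were called (21.5%). These shares are the background for the counts of called list members below. For the medians of the lists, the median log2 fold change was -0.04 over all tested genes and 0.08 over genes of at least 5 CPM. In genes of that level it was 0.03 against line WT alone and 0.13 against line Zfp281_WT alone. Against line WT alone 2179 genes were called (11.5%), and against line Zfp281_WT alone 4664 (24.6%). These 3 comparisons share the KO libraries, so their agreement is no independent support. The genes called in the same direction in all 3 numbered 966 higher (5.09% of tested genes) and 684 lower (3.61%). Most changes were moderate, with a median absolute log2 fold change of 0.67 among higher and 0.72 among lower calls. Past 2-fold were 434 higher and 303 lower calls. The split between directions varied with the processing. It was 1728 higher and 1711 lower with only genes of 5 CPM in a group, and 1178 and 1038 with DESeq2 size factors. With DESeq2 it was 1227 and 1078, and with TMM factors from autosomal genes 1207 and 921. With no filter on low counts it was 1310 and 694, and with the line as a replicate block 1549 and 721. The number of calls rested on having both KO lines: 655 genes were called without KO1 and 539 without KO2, while 6537 were called without line WT and 2771 without line Zfp281_WT in 2i. The split between directions varied with the WT libraries used: it was 1198 higher and 1573 lower without line Zfp281_WT in 2i, 4815 and 1722 without line WT in 2i, and 4863 and 6340 with line WT left out at both stages. Of 150 called genes from the lists and the largest changes, 76 lost the call without KO1, 85 without KO2, 8 without line WT and 21 without line Zfp281_WT. Against line WT alone, 1288 calls were higher and 891 lower, but with TMM factors from autosomal genes 1130 were higher and 1381 lower, with DESeq2 size factors 965 and 1041, and with DESeq2 580 and 687.

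**Figure D1:**
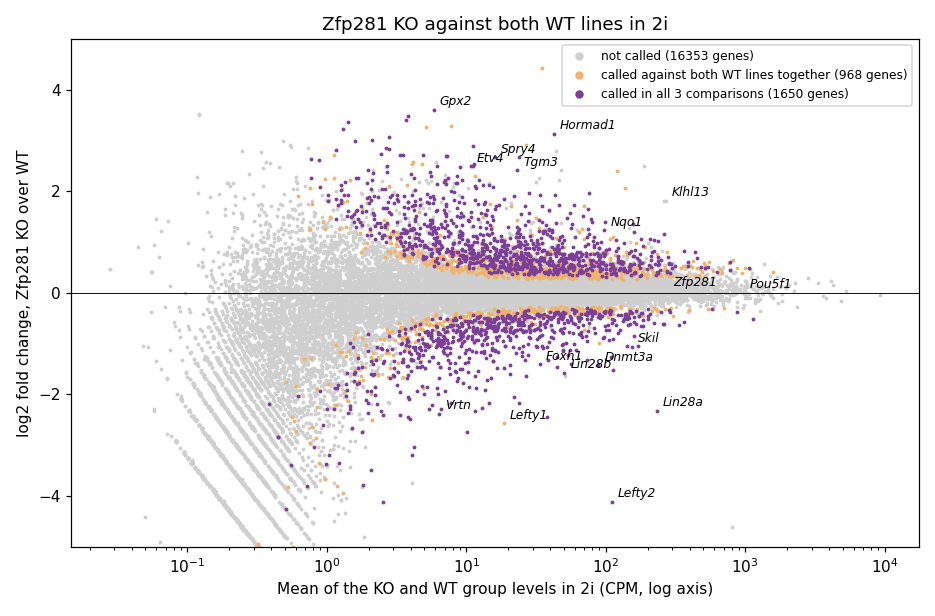
Each point is 1 of the tested genes in 2i, by the mean of the KO and WT group levels (CPM, log axis) and the log2 fold change of Zfp281 KO over both WT lines. Purple points are the 1650 genes called the same way in all 3 comparisons, orange points are called against both lines together, and grey points are not called. Lefty2 (log2 fold change -4.11) and Lin28a (-2.32) lie far below genes of like level, and Zfp281 and Pou5f1 lie near 0; points beyond 5 in either direction are not drawn.

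The 15 genes that fell most, among those called in all 3 comparisons, spanned log2 fold changes of -2.17 to -4.11. They were chosen only where KO and WT libraries did not overlap, so that separation was set by the choice. Lefty2, a secreted inhibitor of Nodal, led them (Entrez 320202, chromosome 1, 180893108 to 180899107). Its level was 220 CPM in line WT, 197 CPM in line Zfp281_WT, 12.9 CPM in KO1 and 11.2 CPM in KO2. Both KO libraries were far below both WT libraries, and the log2 fold change was -4.11 ± 0.45 (adjusted p = 0.0033). Itgam, the integrin alpha M subunit best known from myeloid cells, had 7.41 and 7.43 CPM in the WT lines and 0.664 and 0.95 CPM in the KO lines (-3.19 ± 0.22, adjusted p = 6.2e-05). Dmrt1, a transcription factor of the germ line, had 14.7 and 20.7 CPM against 2.93 and 2.33 CPM (-2.74 ± 0.20, adjusted p = 9.2e-05). Ap3b2, a subunit of a vesicle adaptor complex of neurons, had 59 and 68.8 CPM against 12.3 and 10.9 CPM (-2.45 ± 0.12, adjusted p = 1.9e-05). In each of these genes the gap between KO and WT lines was larger than the distance between lines of a genotype. Slc1a3, a glutamate transporter, had 21.9 and 21.4 CPM against 4.56 and 4.48 CPM. Vrtn, a gene known for its effect on the number of vertebrae, had 11.5 and 10 CPM against 2.11 and 2.02 CPM. Crabp2, which binds retinoic acid in the cell, had 12.6 and 9.42 CPM against 2.75 and 1.81 CPM. Other genes of this group were Mapk8ip2, a scaffold of Jnk signalling (-2.44), St8sia3, a sialyltransferase (-2.41), Gap43, a growth cone protein (-2.33), Pou2f3, a POU transcription factor (-2.28), Trim63, a ubiquitin ligase of muscle (-2.21), Fras1, a protein of the basement membrane (-2.17), and Lin28a, described below. Gap43 and Lefty2 were less secure than the rest: Gap43 was not called without KO1 or without KO2, and Lefty2 not without KO2.

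**Figure D2:**
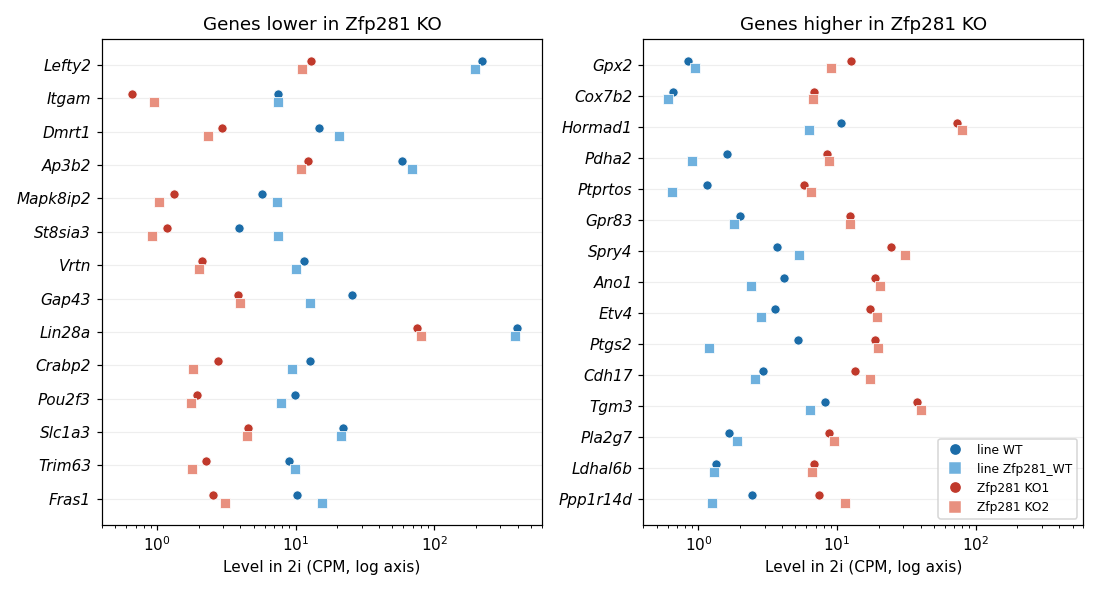
Level in 2i (CPM, log axis) of 14 of the 15 genes with the largest falls and of the 15 with the largest rises among genes called in all 3 comparisons, 1 point per library. Blue symbols are the WT lines and red symbols the KO lines. The colours do not mix in any row, because genes were chosen only where KO and WT libraries did not overlap. Lefty2 is at 220 and 197 CPM in the WT lines and 12.9 and 11.2 CPM in the KO lines, and Hormad1 is at 10.7 and 6.23 CPM against 73.9 and 79.4 CPM.

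In the Nodal pathway, 4 inhibitors and Foxh1 were lower and the ligand gene itself was not called. Nodal is a ligand of the TGF-beta family that signals through activin receptors, Smad2 and Smad3 and the DNA-binding partner Foxh1, and it switches on its own inhibitors, the Lefty genes. The ligands and the enzymes that process them showed 1 higher and 0 lower calls among 8 tested genes. Their median log2 fold change was 0.33, against -0.04 over all tested genes and 0.08 over those of at least 5 CPM. Over all tested genes 13.8% were called. Nodal itself had 71.3 and 49.3 CPM in the WT lines and 71.5 and 72 CPM in KO1 and KO2 (0.24 ± 0.22, adjusted p = 0.48). Its co-receptor Tdgf1 had 535 and 428 CPM against 664 and 673 CPM (0.47 ± 0.15, adjusted p = 0.069), and Furin, a protease that cleaves the Nodal precursor, rose from 8.66 and 7.98 CPM to 11.9 and 13.7 CPM (0.61 ± 0.13, adjusted p = 0.013). Without KO1, KO2 or line Zfp281_WT 0 of these 8 were called higher, without line WT 4, and with the line as a replicate block 4, Tdgf1 among them (adjusted p = 0.017). Among 9 inhibitors, 4 fell and 0 rose, with a median of -0.52. Lefty1 (chromosome 1, 180935022 to 180938401), the neighbour and near relative of Lefty2, had 35.3 and 28.5 CPM in the WT lines and 5.88 and 4.84 CPM in the KO lines (-2.57 ± 0.37, adjusted p = 0.0063). It was not called against either WT line alone, although the fold changes were -2.72 and -2.41, and reads of the 2 Lefty genes may be divided unevenly by the counting. Skil, which binds Smad proteins and restrains them, fell from 217 and 198 CPM to 100 and 98 CPM (-1.06 ± 0.09, adjusted p = 0.00018). Tgif2, another repressor of Smad targets, fell from 47.7 and 48.2 CPM to 32 and 35 CPM (-0.52 ± 0.09, adjusted p = 0.0045). Smad7, the inhibitory Smad, did not follow them, with 87.2 and 64.6 CPM against 105 and 113 CPM (adjusted p = 0.11; 0.019 and higher with the line as a replicate block). Without KO1 2 of the inhibitors were called lower, and without KO2 1.

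Among 11 receptors and effectors of Nodal, 3 fell and 2 rose, with a median of -0.04. Foxh1, the DNA-binding partner of Smad2 and Smad3, had 51.2 and 46.5 CPM against 17.5 and 19.3 CPM (-1.41 ± 0.09, adjusted p = 5.8e-05). The receptor Acvr2b fell by less, from 74.4 and 79.1 CPM to 60.1 and 61.3 CPM (-0.34 ± 0.08, adjusted p = 0.025), and was not called against line WT alone. Smad3 (0.30 ± 0.08, adjusted p = 0.039) and the receptor Acvr2a (0.40 ± 0.11, adjusted p = 0.039) rose slightly; neither was called against line WT alone. With the line as a replicate block Acvr2b, Acvr2a and Smad3 were not called (adjusted p = 0.056, 0.054 and 0.08). The 2 rises were 0 without KO1, KO2 or line Zfp281_WT and 5 without line WT. The receptor Acvr1b and the signal carriers Smad2 and Smad4 had adjusted p-values of 0.13, 0.72 and 0.93.

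Lin28a, Lin28b and several genes tied to let-7 were lower in the KO cells. Lin28a and Lin28b bind the precursor of the let-7 microRNA and stop its maturation, and Lin28b, Hmga1, Igf2bp2, Igf2bp3 and Arid3a are known targets of let-7. Of 16 genes tested, 8 fell and 1 rose, with a median log2 fold change of -0.30; 6 of the falls were called in all 3 comparisons. Lin28a (Entrez 83557, chromosome 4, 134003330 to 134019196) had 393 CPM in line WT, 383 CPM in line Zfp281_WT, 74.8 CPM in KO1 and 80.3 CPM in KO2. The group means were 388 ± 6.7 CPM in WT and 77.6 ± 3.91 CPM in KO cells (SD, n = 2), a log2 fold change of -2.32 ± 0.10 (adjusted p = 1.9e-05). Lin28b had 71.9 and 78.6 CPM against 26.7 and 24 CPM (-1.57 ± 0.09, adjusted p = 2.9e-05). In both Lin28 genes the WT lines lay close together and far above both KO lines. Hmga1, a chromatin protein, fell from 216 and 190 CPM to 115 and 112 CPM (-0.84 ± 0.08). Igf2bp3, an RNA-binding protein, fell from 129 and 123 CPM to 75.4 and 75.6 CPM (-0.74 ± 0.08). Arid3a, a DNA-binding protein, fell by 0.63 ± 0.11 on the log2 scale, and Trim71, an RNA-binding protein that let-7 represses, by 0.52 ± 0.08. Igf2bp2 (-0.31 ± 0.09, adjusted p = 0.048) and Dicer1, which cuts microRNA precursors (-0.35 ± 0.09, adjusted p = 0.032), fell by little and were not called against line WT alone; Igf2bp2 was not called with the line as a replicate block either (adjusted p = 0.08). Mycn, also a known let-7 target, was the member that rose, from 131 and 113 CPM to 171 and 178 CPM (0.52 ± 0.10, adjusted p = 0.0082). Hmga2, also a let-7 target, was not called (-0.29, adjusted p = 0.16). Igf2bp1, Tut4 and Tut7, the last pair being enzymes that tail the let-7 precursor for decay, had adjusted p-values of 0.98, 0.47 and 0.15. Without KO1 3 of the 16 genes were called lower, and without KO2 2; 0 were called higher without either and 4 without line WT.

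Several of the genes that fell carry the string CCCCTCCCC, or its reverse complement, near a start site. The segments below, from the RefSeq promoter table of GRCm38.p6, are read along the gene and run 25 bases to either side of the copies that begin before the start site; capitals mark the string. They are examples from the Lin28, DNA methylation, Nodal and formative lists. Other genes called lower, such as Sox4, Vrtn and Pfkm, and genes called higher, such as Furin and Zfp148, also hold a copy. Acvr2b has 2 more copies after the start and Dnmt3a 1, which are not printed. They are Lin28a (chr4:134018909-134018972, minus strand), Trim71 (chr9:114564374-114564446, minus), Igf2bp3 (chr6:49215027-49215144, minus), Dnmt3a (chr12:3891592-3891752, plus), Dnmt3b (chr2:153649416-153649474, plus), Dnmt3l (chr10:78055248-78055306, plus), Acvr2b (chr9:119402044-119402108, plus) and Sall2 (chr14:52316377-52316457, minus).
Lin28a: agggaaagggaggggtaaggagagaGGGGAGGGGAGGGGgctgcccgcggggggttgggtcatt
Trim71: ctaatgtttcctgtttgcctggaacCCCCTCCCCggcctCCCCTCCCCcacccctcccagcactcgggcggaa
Igf2bp3: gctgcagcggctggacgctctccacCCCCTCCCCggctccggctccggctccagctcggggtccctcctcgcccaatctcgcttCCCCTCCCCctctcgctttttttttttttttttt
Dnmt3a: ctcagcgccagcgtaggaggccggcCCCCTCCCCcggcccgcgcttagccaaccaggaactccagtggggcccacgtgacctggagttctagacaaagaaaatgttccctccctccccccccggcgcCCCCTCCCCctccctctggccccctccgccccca
Dnmt3b: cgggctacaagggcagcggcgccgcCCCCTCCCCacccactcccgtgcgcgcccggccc
Dnmt3l: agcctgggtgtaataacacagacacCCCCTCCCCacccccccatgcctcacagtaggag
Acvr2b: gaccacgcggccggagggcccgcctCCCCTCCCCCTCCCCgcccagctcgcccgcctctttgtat
Sall2: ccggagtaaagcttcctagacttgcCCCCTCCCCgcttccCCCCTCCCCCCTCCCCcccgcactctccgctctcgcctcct

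The first copy begins 131 bases before the start site in Lin28a, 52 in Trim71, 165 in Igf2bp3, 127 in Dnmt3a, 8 in Dnmt3b, 62 in Dnmt3l and 109 in both Acvr2b and Sall2; copies in Lin28a, Acvr2b and Sall2 overlap each other. The windows span 250 bases before to 50 after a start, and 14676 of the tested genes had at least 1. Dnmt3a and Dnmt3l each have 3 windows and Sall2 has 2, and the string is absent from their windows at other starts. Which start these cells use was not tested. On either strand the string stood in 6.37% of all 32851 windows of the table and in 8.35% of the 18251 windows of tested genes. Its share was 14.7% of 749 windows of the genes called lower in all 3 comparisons and 8.54% of 984 windows of the genes called higher. Counted by gene, 100 of 531 genes with a window that fell (18.8%) and 79 of 773 that rose (10.2%) held it, against 9.57% of all tested genes with a window. The string was 1 of 4 overlapping C-rich strings read; CCCTCCCC was read first, and CCCCTCCCC and the genes printed above were chosen after the matches were seen. Among windows of genes that fell, genes that rose and all tested genes, CCCTCCCC stood in 20.3%, 15.2% and 13.9%, CCCCTCCC in 24.4%, 17.3% and 15.8%, and CCCTCCCCC in 12.4%, 5.69% and 6.49%. Windows of genes that fell were also richer in G and C, with a median of 61.7% against 58.7% for all tested genes and 59.5% for genes that rose. The share with CCCCTCCCC was therefore read by G and C content. In windows of at least 66% G and C it was 22.1% for genes that fell, 11.7% for genes that rose and 15.7% for all tested genes, and from 58.7% to 66% it was 15%, 8.79% and 8.7%. From 51.3% to 58.7% it was 9.04%, 8.98% and 6.49%, and below that 3.19%, 3.02% and 2.29%, so genes that fell and rose had like shares in the windows poorer in G and C. Among the genes named here by rule or list that were called lower, 11 of 41 with a window held the string, and among those called higher 9 of 70. The 9 were Cdx2, Eda2r, Furin, Hnf4a, Mdm2, Mest, Socs3, T and Zfp148. Falls of the Lin28, Nodal and formative lists whose windows lack the string included Lin28b, Hmga1, Igf2bp2, Dicer1, Tgif2 and Tead2. A match is a description of letters only, and a window with no match says only that the letters are not in it.

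DNA methyltransferases and several genes of the formative state were lower before 2i was withdrawn. Of 15 genes of the methylation machinery, 4 fell and 2 rose, with a median of 0.02. Dnmt3a, a de novo methyltransferase, had 140 and 118 CPM in the WT lines and 46.1 and 49.7 CPM in the KO lines (-1.43 ± 0.10, adjusted p = 8.2e-05). Dnmt3b, the other de novo enzyme, had 197 and 162 CPM against 118 and 116 CPM (-0.62 ± 0.11, adjusted p = 0.0055). Their cofactor Dnmt3l had 283 and 250 CPM against 209 and 209 CPM (-0.35 ± 0.09, adjusted p = 0.033) and was not called against line Zfp281_WT alone. Mbd1, a reader of methylated DNA, fell from 43.3 and 43.3 CPM to 24.5 and 24 CPM (-0.84 ± 0.08, adjusted p = 0.00032). Of the Tet enzymes, which oxidise methylcytosine, Tet3 rose from 7.65 and 8.22 CPM to 12.4 and 15.1 CPM (0.80 ± 0.12, adjusted p = 0.0028) and Tet2 from 366 and 294 CPM to 496 and 519 CPM (0.62 ± 0.14, adjusted p = 0.02; not called against line WT alone). Tet1 had 302 and 335 CPM against 343 and 358 CPM (adjusted p = 0.48), and the maintenance enzyme Dnmt1 533 and 504 CPM against 427 and 441 CPM (adjusted p = 0.061). Without KO1 or without KO2, 2 of the list were called lower and 1 higher, without line WT 6 were called higher and without line Zfp281_WT 1. With the line as a replicate block Dnmt1 was called lower (adjusted p = 0.046).

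Of 20 formative genes, 6 fell and 4 rose, with a median of 0.03, so the list did not move one way. Besides Dnmt3a, Dnmt3b and Lin28b, the falls were Sox4, a transcription factor (5.58 and 5.83 CPM against 1.78 and 2.79 CPM, -1.32 ± 0.18), Tead2, a partner of Yap (120 and 127 CPM against 66.8 and 67.4 CPM, -0.88 ± 0.08), and Sall2, a zinc finger gene (13.1 and 11.5 CPM against 7 and 7.7 CPM, -0.75 ± 0.11). The rises were Etv4, the forkhead gene Foxd3 (0.89 ± 0.19, adjusted p = 0.016), Tcf15 (0.81 ± 0.22, adjusted p = 0.045; not called against line WT alone) and Grhl2, an epithelial regulator (0.69 ± 0.07, adjusted p = 4e-04). The best known formative markers were not called in 2i: Fgf5 had 2.49 and 1.79 CPM against 3.2 and 3.04 CPM (adjusted p = 0.1), Otx2 24.1 and 19.2 CPM against 17.2 and 16.5 CPM (adjusted p = 0.066), and Pou3f1 1.53 and 0.897 CPM against 0.603 and 0.889 CPM (adjusted p = 0.091). Without KO1 or without KO2, 4 formative genes were called lower and 2 higher, and without line WT 7 were called higher.

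Most naive genes were not called. Of 20, 3 rose and 1 fell, a share near the 21.5% of all genes of at least 5 CPM, with a median of 0.48 that was 0.30 against line WT and 0.57 against line Zfp281_WT. Esrrb had 596 and 592 CPM in the WT lines and 630 and 660 CPM in the KO lines (0.12 ± 0.28, adjusted p = 0.8), and Zfp42, the Rex1 gene of the reporter, had 489 and 390 CPM against 504 and 492 CPM (adjusted p = 0.64). Nanog had 877 and 580 CPM against 967 and 974 CPM (adjusted p = 0.49), so the gap between the WT lines exceeded that between genotypes. The rises were the X-linked nuclear receptor gene Nr0b1 (0.76 ± 0.13, adjusted p = 0.0059), Klf5 (0.64 ± 0.13, adjusted p = 0.013) and Tet2. Pecam1, an adhesion molecule high in naive cells, fell from 90 and 91.2 CPM to 61 and 58.6 CPM (-0.60 ± 0.10, adjusted p = 0.0058). Of 12 general pluripotency genes, 2 rose (among them Dppa2, 0.63 ± 0.10) and 2 fell (Lin28a and Utf1, -0.74 ± 0.12). The median of the general list was 0.17. Without KO1 or without KO2, 0 genes of either list were called higher, and without line WT 6 naive and 7 general genes were. With the line as a replicate block 6 naive and 4 general genes were called higher.

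Of Zfp281's paralogue and partners, 3 of 12 genes rose and 0 fell, with a median of 0.06, near the 21.5% called among all genes of at least 5 CPM. Without KO1 or without KO2 the number was 0, without line Zfp281_WT 1 and without line WT 6. Zfp148 had 88.5 and 85.9 CPM against 112 and 107 CPM (0.33 ± 0.09, adjusted p = 0.048) and was not called against line WT alone or with the line as a replicate block (adjusted p = 0.057); Tet2 was another. Ehmt1, a histone methyltransferase whose knockout is also in the series, had 112 and 97.3 CPM against 106 and 105 CPM (adjusted p = 0.96), and Zic2 had 101 and 110 CPM against 92 and 94.8 CPM (adjusted p = 0.3).

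The 15 genes that rose most in all 3 comparisons spanned log2 fold changes of 2.3 to 3.6. Here too the choice was limited to genes without overlap of KO and WT libraries. Gpx2, a glutathione peroxidase of the gut epithelium, led them (Entrez 14776, chromosome 12, 76792335 to 76795554). Its level was 0.847 CPM in line WT, 0.947 CPM in line Zfp281_WT, 12.5 CPM in KO1 and 9.04 CPM in KO2, resting on 31, 19, 415 and 295 counts (3.60 ± 0.25, adjusted p = 8.2e-05). Hormad1, which binds the chromosome axis in meiosis (chromosome 3, 95559677 to 95587863), had 10.7 and 6.23 CPM in the WT lines and 73.9 and 79.4 CPM in the KO lines (3.13 ± 0.26, adjusted p = 0.00031). In both genes the KO libraries were far above the WT libraries. Cox7b2, a testis form of a cytochrome c oxidase subunit, had 0.656 and 0.598 CPM against 6.85 and 6.65 CPM, and Pdha2, the testis form of a pyruvate dehydrogenase subunit, 1.61 and 0.897 CPM against 8.48 and 8.74 CPM. Ldhal6b, a further testis enzyme gene of the lactate dehydrogenase family, had 1.34 and 1.3 CPM against 6.76 and 6.56 CPM. Tgm3, a transglutaminase of the epidermis, had 8.14 and 6.33 CPM against 37.5 and 40.4 CPM (2.41 ± 0.13, adjusted p = 2.2e-05). These genes belong to tissues other than the early embryo. The KO lines lay close together in each but Gpx2, where KO1 was above KO2 (12.5 and 9.04 CPM). Ano1, a chloride channel, had 4.15 and 2.39 CPM against 18.9 and 20.4 CPM. Cdh17, an intestinal cadherin, had 2.92 and 2.54 CPM against 13.4 and 17.4 CPM. Ptgs2, the inducible cyclooxygenase, had 5.19 and 1.2 CPM against 18.8 and 19.7 CPM, so the WT lines differed over 4-fold. The others were Spry4 and Etv4, given next, the receptor gene Gpr83 (2.70), the antisense transcript Ptprtos (2.71), the lipase gene Pla2g7 (2.37) and Ppp1r14d, a phosphatase inhibitor (2.30). Whether counting used strand is not given in the sources used here, so Ptprtos cannot be told from reads of its partner. Ptgs2 and Ptprtos were not called without KO1 or without KO2, and Ptgs2 not without the filter on low counts.

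Feedback targets of Erk were in part higher in the KO cells, with the Mek inhibitor in all 4 cultures. Of 20 genes of this list, 6 rose and 1 fell, all 7 called in all 3 comparisons, with a median of 0.20. The background for this list and the Fgf list was 13.8% called among all tested genes and 21.5% among those of at least 5 CPM. Spry4, a feedback inhibitor of receptor tyrosine kinases, had 3.69 CPM in line WT, 5.28 CPM in line Zfp281_WT, 24.5 CPM in KO1 and 30.9 CPM in KO2 (2.67 ± 0.17, adjusted p = 5.6e-05). Etv4, an ETS factor downstream of Fgf (chromosome 11, 101769747 to 101785310), had 3.55 and 2.84 CPM against 17.3 and 19.4 CPM (2.49 ± 0.13, adjusted p = 1.9e-05). These were the clearest of the set, with both KO lines more than 4 times above both WT lines. Myc had 4.78 and 4.09 CPM against 9.14 and 11.5 CPM (1.21 ± 0.15), Etv1, another ETS factor, 10.9 and 8.02 CPM against 16.8 and 20.1 CPM (0.94 ± 0.15), and the Erk phosphatase gene Dusp6 13.9 and 12.6 CPM against 21 and 25.9 CPM (0.82 ± 0.13). Dusp4, a nuclear phosphatase, rose by 0.92 ± 0.17. Other classical targets did not follow: Etv5 had 346 and 281 CPM against 345 and 371 CPM (adjusted p = 0.37), Spry2 19.4 and 25.4 CPM against 18.9 and 20.4 CPM (adjusted p = 0.38), and Egr1 12.9 and 25.4 CPM against 15 and 13.6 CPM (adjusted p = 0.34). Spred3, a related feedback inhibitor, fell by 1.06 ± 0.21. Of 12 Fgf ligands, receptors and binding proteins, 4 rose and 1 fell, with a median of 0.33 (2 rose without KO1 and 1 without KO2, and 0 fell without either or without line WT): Fgf15 (1.31 ± 0.13), Fgfbp3 (1.21 ± 0.34), Fgfbp1 (0.60 ± 0.11) and the receptor Fgfr2 (0.60 ± 0.12) rose, Fgf17 fell by 1.60 ± 0.38 (not called against line Zfp281_WT alone), and Fgf4, the main Fgf of stem cells, had 236 and 213 CPM against 219 and 218 CPM (adjusted p = 0.79). Fgfbp3 was not called against line WT alone or with the line as a replicate block (adjusted p = 0.099).

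Id genes and other targets of Bmp rose in part. Of 15 genes, 3 rose and 0 fell, with a median of 0.11, and 9 of the 15 reached 5 CPM in a group. Background shares for this list and the next were 13.8% of all tested genes called, 8.5% of them higher, and 21.5% of genes of at least 5 CPM called. Id3, an inhibitor of bHLH factors, rose from 8.64 and 7.13 CPM to 22.1 and 23.3 CPM (1.51 ± 0.13, adjusted p = 0.00022), Id2 from 0.847 and 0.798 CPM to 2.69 and 2.7 CPM (1.70 ± 0.23), and Smad6, an inhibitory Smad, from 5.41 and 4.24 CPM to 11.9 and 12.3 CPM (1.31 ± 0.15). Id1 had 1.23 and 1.6 CPM against 1.6 and 2.21 CPM (adjusted p = 0.37). Without line WT 6 of the Bmp list were called higher and 0 lower, without line Zfp281_WT 3 higher and 3 lower, and with the line as a replicate block 5 higher. Of 11 Lif and Stat3 genes, 3 rose and 0 fell, with a median of 0.24 (1 rose without KO1, 0 without KO2 and 6 without line WT): the kinase gene Jak1 (0.72 ± 0.11), the feedback inhibitor Socs3 (1.06 ± 0.26) and Stat3 (0.49 ± 0.11, not called against line WT alone). Socs3 was not called with the line as a replicate block (adjusted p = 0.086). Of 16 Wnt targets, 3 rose and 1 fell, with a median of 0.04, near the 21.5% called among all genes of at least 5 CPM (1 rose without KO1, KO2 or line Zfp281_WT, and 0 fell without KO1 or KO2): Cdx2 (2.15 ± 0.35), the Wnt inhibitor Notum (1.62 ± 0.34) and T (1.14 ± 0.30, with KO1 well above KO2) rose and the cyclin gene Ccnd1 fell from 333 and 295 CPM to 210 and 199 CPM (-0.62 ± 0.10). Notum was not called against line WT alone, and T was called against neither WT line alone nor with the line as a replicate block. Axin2, the usual readout of beta-catenin, had 94.2 and 96.5 CPM against 103 and 92.3 CPM (adjusted p = 0.82).

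**Figure D3:**
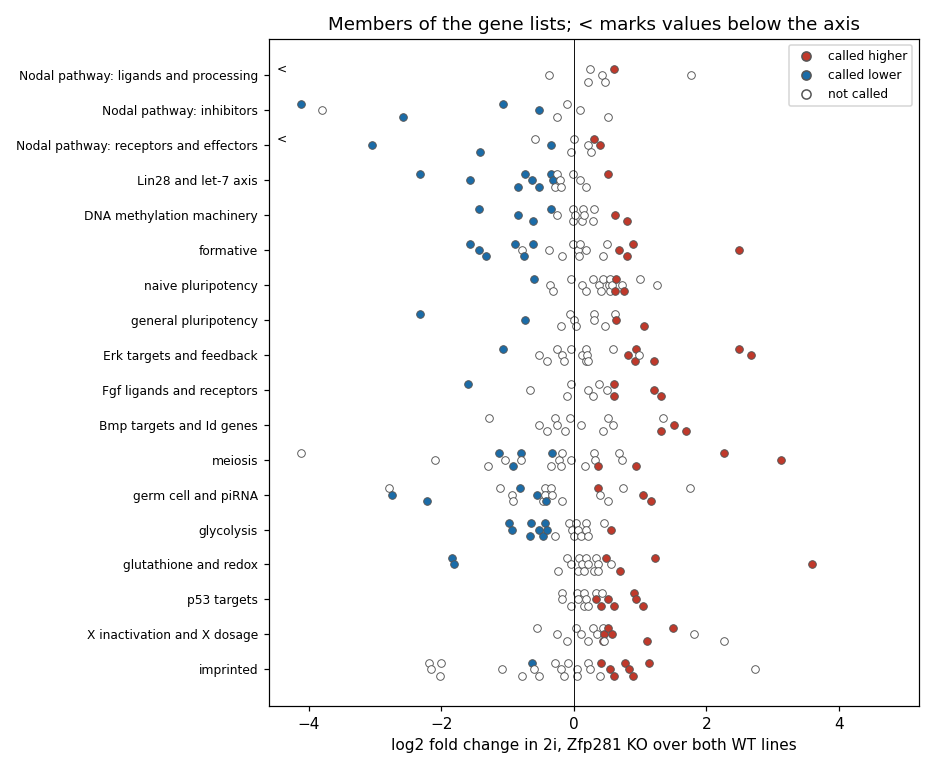
Each circle is 1 tested member of a selection of the gene lists, by its log2 fold change in 2i (Zfp281 KO over both WT lines); filled circles were called (red higher, blue lower), open circles were not, and < marks a value below the axis. The filled circles lie on the lower side in the Nodal inhibitors (4 of 9), in all but 1 of the 9 called genes of the Lin28 and let-7 list and in glycolysis (8 lower, 1 higher), and on the higher side in the p53 targets (7 of 18) and in all but 1 of the 7 called Erk targets.

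Genes of meiosis and the germ line changed in both directions. Calls covered 13.8% of all tested genes and 21.5% of those of at least 5 CPM. Of 23 meiosis genes tested, 4 rose and 4 fell, with a median of -0.19 that was 0.37 against line WT alone and -0.29 against line Zfp281_WT alone. Besides Hormad1, Smc1b, the meiotic cohesin subunit, rose from 2.54 and 2.59 CPM to 13.2 and 11.4 CPM (2.26 ± 0.21, adjusted p = 0.00025). Syce1, of the synaptonemal complex, rose from 13.4 and 13.4 CPM to 26.9 and 24.7 CPM (0.94 ± 0.09), and Dmc1, a recombinase, by 0.36 ± 0.09. Sycp3, of the same complex, fell from 17 and 18.3 CPM to 8.72 and 9.9 CPM (-0.92 ± 0.11), as did Tex14 (-1.13 ± 0.11), Tex15 (-0.79 ± 0.09) and Syce2 (-0.33 ± 0.08). Dmc1 was not called against line Zfp281_WT alone and Syce2 not against line WT alone, and neither was called with the line as a replicate block (adjusted p = 0.091 and 0.054). Of 22 germ cell and piRNA genes, 5 fell and 3 rose, with a median of -0.42 that was -0.04 against line WT alone; without KO1 2 fell, without KO2 1, without line WT 10 and with the line as a replicate block 3. Ddx4, a helicase of germ cells, fell from 12.3 and 11.4 CPM to 6.79 and 6.71 CPM (-0.81 ± 0.10), and Tdrd12, of the piRNA pathway, from 45.6 and 44.5 CPM to 31.6 and 29.5 CPM (-0.56 ± 0.08). Dazl, an RNA-binding protein of germ cells, rose from 12.1 and 8.22 CPM to 21.4 and 21.5 CPM (1.05 ± 0.16).

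Several glycolytic enzymes were lower with both WT lines in the fit. For this list and the redox list, the background was 21.5% called among all genes of at least 5 CPM. Of 20 genes, 8 fell and 1 rose, all in all 3 comparisons, with a median of -0.05. Hk1, a hexokinase, fell from 49.9 and 54.1 CPM to 27.7 and 25.2 CPM (-0.97 ± 0.09, adjusted p = 0.00023), Ldhb from 208 and 232 CPM to 140 and 137 CPM (-0.66 ± 0.11), and Ldha, the main lactate dehydrogenase, from 469 and 344 CPM to 271 and 253 CPM (-0.64 ± 0.13). The other falls were Eno3 (-0.93), Aldoc (-0.53), Pdk1, which inhibits pyruvate dehydrogenase (-0.46), Pfkm (-0.44) and Tpi1 (-0.40). The glucose transporter gene Slc2a1 rose from 213 and 150 CPM to 268 and 267 CPM (0.56 ± 0.14), while Aldoa and Eno1 had adjusted p-values of 0.99 and 0.38. Without KO1 2 of the list were called lower, and without KO2 2; without line WT 5 were called lower and 7 higher, and without line Zfp281_WT 9 lower and 1 higher. Of 20 glutathione and redox genes, 4 rose and 2 fell, with a median of 0.20; without KO1 or KO2 3 rose and 0 fell, and without line WT 13 rose. Apart from Gpx2, Nqo1, a quinone reductase, rose from 65 and 52.2 CPM to 134 and 141 CPM (1.23 ± 0.12, adjusted p = 0.00028), Gss, which makes glutathione, from 45 and 44.1 CPM to 71.8 and 72.7 CPM (0.70 ± 0.10), and Gsta4 by 0.48 ± 0.08; Mgst1 (-1.81 ± 0.36) and Gstt1 (-1.84 ± 0.53) fell. Gstt1 was not called against line WT alone, and neither of these was called with the line as a replicate block (adjusted p = 0.057 for Mgst1 and 0.22 for Gstt1).

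Of 18 p53 targets, 7 rose and 0 fell, with a median of 0.28. Background shares for this and the next lists were 13.8% of all tested genes and 21.5% of those of at least 5 CPM. Eda2r, X-linked, had 168 and 121 CPM in the WT lines and 301 and 295 CPM in the KO lines (1.04 ± 0.18), Ccng1 695 and 543 CPM against 967 and 919 CPM (0.61 ± 0.11), Btg2 66.8 and 47 CPM against 101 and 114 CPM (0.91 ± 0.15) and Perp 21.8 and 13.5 CPM against 34.2 and 34.2 CPM (0.94 ± 0.22). Mdm2 (0.34), Trp53inp1 (0.41) and Phlda3 (0.51) were called with both WT lines but not against line WT alone, and Cdkn1a, the best known target, had 28.8 and 32.9 CPM against 28.5 and 26.3 CPM (adjusted p = 0.31). In all 7 the level in line Zfp281_WT was below that in line WT. Without KO1 1 of the list was called higher, without KO2 0, without line WT 13 and without line Zfp281_WT 4. Of 13 genes of the 2-cell-like state, 5 rose and 0 fell, with a median of 1.98 that was 1.42 against line WT and 3.35 against line Zfp281_WT; without KO1 2 rose, without KO2 1 and without line WT 9. Sp110 (1.76 ± 0.32) and Arg2 (1.81 ± 0.25) stood at like levels in both WT lines; Sp110 was not called with the line as a replicate block (adjusted p = 0.065), and 4 of the 5 were called in all 3 comparisons. Zscan4d, of a family of near-identical genes whose counts are uncertain, had 1.45 and 0.249 CPM against 3.77 and 3.99 CPM (adjusted p = 0.14). Of 26 imprinted genes, 7 rose and 1 fell, with a median of -0.01; without KO1 or KO2 1 rose and 0 fell, without line WT 3 fell and without line Zfp281_WT 4. Ndn (1.14 ± 0.24), Nnat (0.90 ± 0.14), Snrpn (0.83 ± 0.17), Plagl1 (0.78 ± 0.18), Peg3 (0.61 ± 0.11), Mest (0.54 ± 0.12) and Zrsr1 (0.41 ± 0.10), all known to be expressed from the paternal copy, rose, and Igf2r, expressed from the maternal copy, fell from 137 and 149 CPM to 96.3 and 88.5 CPM (-0.63 ± 0.08, adjusted p = 0.0013). Ndn and Plagl1 were not called against line WT alone. Other paternally expressed members were not called and lay on the other side of 0: Igf2 (-0.78, adjusted p = 0.053), Usp29 (-1.08), Dlk1 (-2), Airn (-2.16), Sgce (-0.28) and Impact (-0.15). H19, also maternal, had 5.33 and 0.548 CPM against 25.3 and 19.2 CPM (adjusted p = 0.33), and the WT lines differed widely.

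The X chromosome stood apart from the autosomes. Of 683 tested X-linked genes, 195 were called higher (28.6%) and 19 lower (2.78%), while the autosomes ranged from 5.78% to 10.4% higher and from 4.06% to 7.06% lower. The median log2 fold change of X-linked genes was 0.41, against -0.11 to 0.02 for the autosomes; it was 0.37 against line WT alone and 0.56 against line Zfp281_WT alone. Among 404 X-linked genes of at least 5 CPM, 322 had both KO libraries above both WT libraries, where 43.4% of all genes of that level did. X-linked genes took 3.94% of all counts in line WT, 3.33% in line Zfp281_WT, 4.72% in KO1 and 4.8% in KO2. The WT lines themselves differed on this chromosome: the median of line Zfp281_WT minus line WT was -0.36 for X-linked genes and -0.10 for autosomal genes, while KO1 and KO2 were 0.32 and 0.35 above line WT on the X and 0.02 above it on the autosomes. A difference between lines in X-linked levels was therefore present within the WT group too, and its part in the KO result was not tested. Xist, the RNA that silences an X chromosome, had 13.7 CPM in line WT, 8.82 CPM in line Zfp281_WT, 51.2 CPM in KO1 and 58.8 CPM in KO2 (2.26 ± 0.55, adjusted p = 0.054). Tsix, its antisense partner, had 6.07 and 5.28 CPM against 15.8 and 16.2 CPM (1.49 ± 0.18), and Ftx, a neighbour, 4.45 and 4.34 CPM against 9.05 and 9.78 CPM (1.10 ± 0.11); reads of Xist and Tsix overlap and may be shared. Klhl13 (chromosome X, 23219271 to 23365161) had 161 and 76.9 CPM against 431 and 407 CPM (1.81 ± 0.57, adjusted p = 0.11). Of 18 genes chosen for X inactivation and dosage, 6 rose and 0 fell, among them Kdm5c (0.58 ± 0.12), Ogt (0.52 ± 0.13) and Huwe1 (0.46 ± 0.13); without KO1 or KO2 2 rose, without line WT 13 and without line Zfp281_WT 3. Ogt and Huwe1 were not called against line WT alone, and 3 of the 6 were called in all 3 comparisons. Without line Zfp281_WT in 2i 100 X-linked genes were called higher and without line WT 341, and without KO1 or KO2 28 and 21; the chromosome's median was 0.31 to 0.66 in these 4 fits. On chromosome 6 the medians of KO1 and KO2 minus line WT were 0.11 and 0.14, and on chromosome 11 they were 0.10 and 0.01, so KO1 differed there from KO2.

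**Figure D4:**
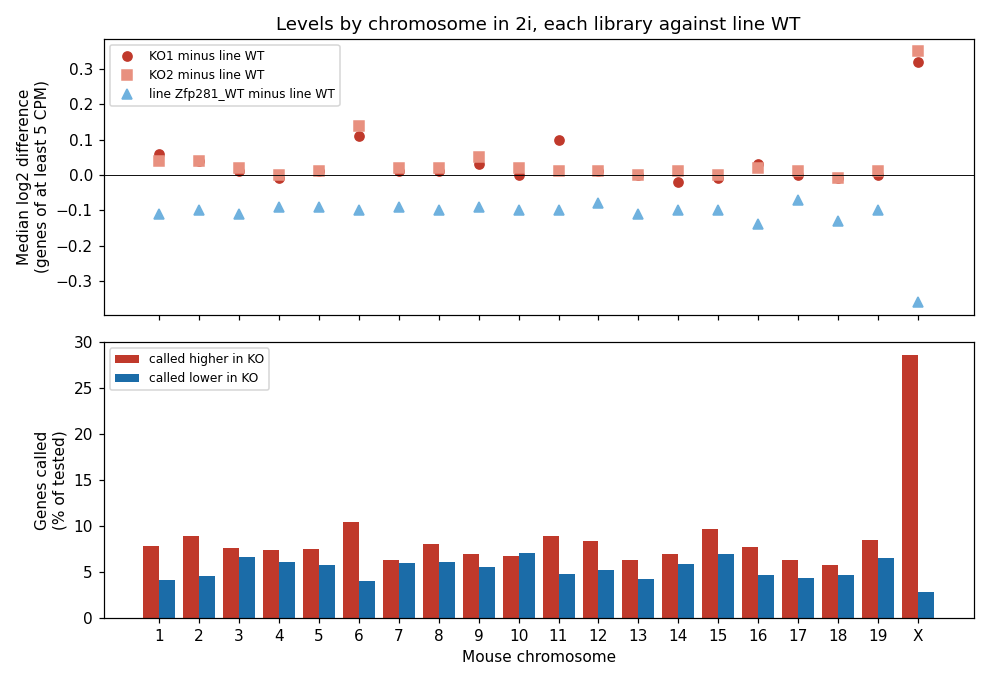
Upper panel: median log2 difference in 2i of KO1, KO2 and line Zfp281_WT from line WT over genes of at least 5 CPM, for each chromosome. Lower panel: percent of tested genes on each chromosome called higher (red) or lower (blue) in Zfp281 KO cells against both WT lines. The X chromosome shows 28.6% of genes higher, KO medians of 0.32 and 0.35, and a median of -0.36 for line Zfp281_WT.

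Markers of other cell types were read for all 4 libraries. As background, 13.8% of all tested genes were called, with 8.5% higher and 5.3% lower, and 21.5% of genes of at least 5 CPM. The 12 fibroblast and feeder markers summed to 11.3 CPM in line WT, 18.2 CPM in line Zfp281_WT, 8 CPM in KO1 and 7.63 CPM in KO2; 2, 0, 2 and 1 of the 12 were at 0, and 1 of 11 tested was called lower (Tagln, -1.59 ± 0.26). The median of the list was -1.59 with both WT lines and -0.28 against line WT alone, and 0 were called lower without KO1 or KO2 and 3 without line WT. The 11 blood and immune markers in the table summed to 17.2, 23.3, 20 and 18.7 CPM, with 2, 1, 2 and 2 at 0. Of 8 tested, Itgam fell and Cd68, a lysosomal protein, rose (0.99 ± 0.14). The leukocyte marker Ptprc had 0.082 CPM in line WT, 2.29 CPM in line Zfp281_WT and 0.0905 and 0.0613 CPM in KO1 and KO2. Itgam was at 7.41 CPM in line WT and 7.43 CPM in line Zfp281_WT, and the source of its reads was not tested. The 17 primitive endoderm markers summed to 657 and 509 CPM against 697 and 720 CPM, with 0, 0, 1 and 1 at 0; Hnf4a (2.19 ± 0.33) and Lama1 (0.98 ± 0.10) rose (6 genes rose and 4 fell without line WT, 4 rose without line Zfp281_WT and 4 with the line as a replicate block), Lamb1 fell from 108 and 101 CPM to 41.6 and 42.1 CPM (-1.32 ± 0.08), and the defining Gata6 had 0.273, 1.2, 0.151 and 0.46 CPM in the 4 libraries. The 15 trophoblast markers summed to 86.4 and 105 CPM against 120 and 111 CPM, with none at 0; 4 rose (2 without KO1 or KO2), namely Cdx2, Eomes (0.99 ± 0.10), Krt8 (1.14 ± 0.20) and Krt7 (2.26 ± 0.48; adjusted p = 0.17 with the line as a replicate block). The 12 streak and mesoderm markers summed to 33.9 and 36.6 CPM against 63.1 and 58.6 CPM, with none at 0, and of 11 tested T, Eomes and Wnt8a (1.03 ± 0.14) rose. The 10 neural markers summed to 120 and 96.3 CPM against 170 and 189 CPM, with 0, 0, 1 and 1 at 0, and of 9 tested Tubb3 (1.46 ± 0.20) and Olig3 (1.37 ± 0.30) rose (1 of them without KO1 or KO2). In bulk samples a change in the share of such cells and a change per cell cannot be told apart.

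Most of the named genes changed in the same direction after 2i was withdrawn, in other libraries of the same lines. Of the 15 that fell in 2i, 14 were called lower at 16 h, when 13.3% of tested genes were, and 13 at 32 h, when 11.9% were. Of the 15 that rose, 10 were called higher at 16 h, when 15.3% of genes were, and 14 at 32 h, when 16.6% were. The shares of all tested genes are no matched background for genes already called in 2i. Among all genes called lower in all 3 comparisons, 82.3% of those tested were also lower at 16 h and 82.5% at 32 h. Among those called higher, it was 70.3% and 76.5%. The libraries at 32 h were also in the same fit as those in 2i. Lin28a had 819 and 865 CPM in the WT lines and 95.6 and 99.1 CPM in the KO lines at 16 h (-3.11), and 830 and 850 CPM against 116 and 136 CPM at 32 h (-2.74). The fall of Lin28a thus persisted while the WT level was above that in 2i. Lefty2 had 21.8 and 14.4 CPM against 3.21 and 2.8 CPM at 16 h and 39.4 and 14.6 CPM against 8 and 7.29 CPM at 32 h (-1.83, adjusted p = 0.029). Hormad1 had 24.7 and 22 CPM against 120 and 123 CPM at 16 h and 26 and 16.8 CPM against 193 and 192 CPM at 32 h. Cdh17 was among the rises not called at 16 h, where the WT lines had 3.67 and 0.541 CPM and the KO lines 15.5 and 21.9 CPM (3.17, adjusted p = 0.15). Levels at 16 h come from a table normalised on its own.

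**Figure D5:**
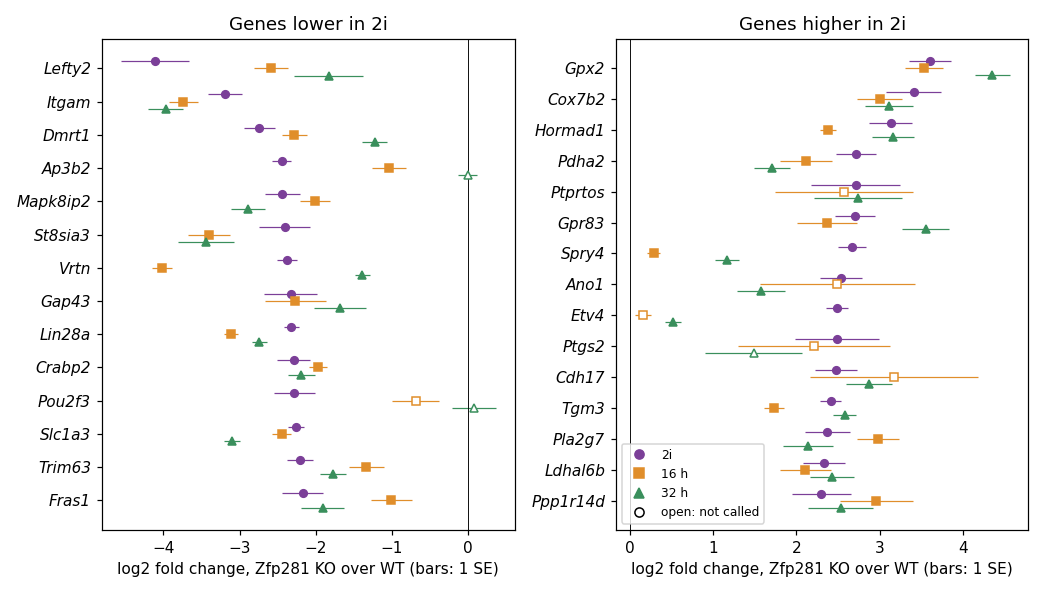
Log2 fold change of Zfp281 KO over both WT lines for 14 of the 15 genes with the largest falls and the 15 with the largest rises in 2i, at 2i (circles), 16 h (squares) and 32 h (triangles) after withdrawal; bars are 1 standard error and open symbols were not called. Lin28a stays between -2.32 and -3.11, while Ap3b2 reaches -0.01 and Etv4 0.52 at 32 h.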

How the data were processed

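The authors deposited raw counts per gene for 24116 Entrez IDs, in 1 table for 2i and 32 h and another for 16 h, per the file headers. The submitters' processing notes name edgeR and the build GRCm38 (mm10); no aligner, counter, strand setting or filter is given in the sources used here. Columns were matched to samples by name. The labels do not say by name which WT lines belong to the Zfp281 KO cells; histone genes took 0.372% to 0.636% of counts in these 6 WT libraries, 0.394% to 0.5% in the Zfp281 KO libraries and at most 0.00135% in the polyA libraries. Symbols and coordinates came from RefSeq (GRCm38.p6), where 24061 IDs matched and 55 did not.

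The 8 libraries of 2i and 32 h were fitted together as 4 groups and the 4 of 16 h on their own: filterByExpr (minimum count 10, total 15), TMM, edgeR 4.0.16 quasi-likelihood tests (R 4.3.3), Benjamini-Hochberg adjustment over all genes tested, called under 0.05. For each WT line alone, the WT libraries in 2i were separate groups, and the lone library was assumed to vary like the others; the filter shared by the 3 comparisons in 2i was chosen after first counts with another filter were seen. CPM used TMM-scaled library sizes. Standard errors were the fold change over the square root of F. The procedure was tested on simulated data.

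The members, the 28 lists of 413 genes (13 not tested) and the C-rich strings were chosen with earlier results of these data known. Named were Zfp281, Xist, list members, and, of the genes called in all 3 comparisons that reached 5 CPM in a group with KO and WT libraries not overlapping, the 15 of largest change each way, passing over predicted genes, pseudogenes and near-identical families (Tuba3a, Tuba3b, Nlrp9b and Tdpoz3, picked after values were seen). A few genes that enter the counts are not reported here by name. Klhl13 and chromosomes 6 and 11 were singled out after their values were seen. Alternatives were other scalings, DESeq2 1.42.0, limma 3.58.1 voom with the line as a replicate block, other filters and leaving out libraries. KO1 and KO2 in 2i differed beyond counting noise (chi-square 3.57 per gene).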

Additional observations from a re-analysis of the deposited data

Results flagged for a closer look

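For 7 of the 30 genes with the largest changes, the KO effect in 2i differed from that at 32 h by the interaction of genotype with stage (edgeR quasi-likelihood test, adjusted over all genes, of which 787 of 18971 were called, 4.15%). The value is the log2 fold change in 2i minus that at 32 h. The 30 genes were chosen for large changes in 2i in the same fit, which favours effects larger in 2i. The 4.15% is therefore no matched background for them. It was -2.44 for Ap3b2 (adjusted p = 0.0011), whose WT lines had 59 and 68.8 CPM in 2i and 7.05 and 6.81 CPM at 32 h, while the KO lines had 12.3 and 10.9 CPM and then 6.31 and 7.45 CPM. It was -2.34 for Pou2f3 (adjusted p = 0.013), whose level in the WT lines was 9.92 and 7.88 CPM in 2i and 1.55 and 2.27 CPM at 32 h. Both genes were therefore low in all lines once 2i had been withdrawn for 32 h. Dmrt1 (-1.51, adjusted p = 0.015) and Vrtn (-0.99, adjusted p = 0.011) were lower in the KO cells at both stages, more so in 2i. Slc1a3 was lower at both stages, less so in 2i (0.84, adjusted p = 0.015).

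The KO effect on Etv4 was larger in 2i by 1.97 (adjusted p = 0.0016) and that on Spry4 by 1.5 (adjusted p = 0.0076). Etv4 had 3.55 and 2.84 CPM in the WT lines in 2i and 30.4 and 27.4 CPM at 32 h, against 17.3 and 19.4 CPM and then 41.3 and 41.8 CPM in the KO lines. Spry4 had 3.69 and 5.28 CPM in the WT lines in 2i and 48.5 and 44.2 CPM at 32 h, against 24.5 and 30.9 CPM and then 99.2 and 109 CPM in the KO lines.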

How the results depend on the processing

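The KO effect in 2i gave 2618 calls; leaving out 1 library gave 539 to 6537, line WT left out at both stages 11203 and line Zfp281_WT left out at both stages 5511. Against line WT alone, 2179 calls became 1267 with DESeq2 and 980 to 1173 without a KO library; against line Zfp281_WT alone, 4664 became 2873 with DESeq2 and 7502 with no filter. With each WT line as its own group in the filter, an alternative added after the data were seen, they were 2418 and 6563. At 16 h, 4329 calls became 2137 to 7008 without 1 library. At 32 h, 5400 calls became 2498 to 4944 without 1 library and 12056 without line WT at both stages. The 1650 genes called in all 3 comparisons became 896 with DESeq2 and 518 to 620 without a KO library. With the line as a replicate block (limma voom, correlation 0.65) 2270 genes were called in 2i and 4898 at 32 h, and all 30 genes of largest change kept their calls. Of 150 called genes from the lists and the largest changes, 16 lost the call under the block: Acvr2a, Acvr2b, Dmc1, Fgfbp3, Gstt1, Igf2bp2, Krt7, Mgst1, Piwil2, Smad3, Socs3, Sp110, Syce2, T, Tdrkh and Zfp148. Of 56 counts of list members called one way, 9 moved over 1.5 times under the block. The other alternatives tried moved the numbers of all genes called by at most 1.5 times. They moved more of the 56 list counts: 6 with DESeq2, 6 with its size factors and 7 with no filter. It was 9 with only genes of 5 CPM, 11 with only the 2 groups compared and 4 with TMM on autosomal genes. More list counts moved where a library or line was left out. No called gene named here reversed under any setting. The cause of these shifts was not tested. Where 1 library is left out, its group has a single library, assumed to vary like the rest.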
